A study of Mus musculus with 7 samples.

Results

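The genes described here are the 8 mouse genes that encode subunits of the MOZ histone acetyltransferase complex: Kat6a, Kat6b, Brpf1, Brd1, Brpf3, Ing4, Ing5 and Meaf6. They were chosen by symbol as subunits of the complex, with no measured value in the rule but with earlier results of these data known. They are 8 of the 27179 genes with a deposited read count. In the complex, MOZ (the product of Kat6a, also called KAT6A) or its paralog MORF (Kat6b) is the catalytic subunit, a MYST-family enzyme that acetylates lysines of histone H3. A BRPF scaffold (BRPF1, BRPF3, or BRD1, which is also called BRPF2) holds the enzyme together with a small MEAF6 subunit and with ING4 or ING5, whose PHD fingers bind methylated lysine 4 of histone H3. MOZ is needed for normal development of the pharyngeal arches, and the BRPF, ING and MEAF6 subunits are shared with the related acetyltransferase HBO1 (Kat7).

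The measurement was chromatin immunoprecipitation and sequencing (ChIP-seq) with an anti-V5 antibody on first and second pharyngeal arches of C57BL/6 embryos at E10.5. There were 3 libraries from embryos homozygous for a MOZ allele with a Flag-V5-BIO tag at its carboxy terminus (V5 libraries), 3 from wild-type arches, which carry no tag and serve as the negative control, and 1 input library of tagged arches made without antibody. The tag sits in the endogenous Kat6a locus, so tagged MOZ is made wherever Kat6a is normally active, and homozygotes are described as viable and fertile. Whether replicates came from separate embryos or pools is not stated, and the p-values speak only of differences among the libraries at hand, some of which may be technical. DNA reads per gene do not measure expression, so tissue markers could not be used to check the label.

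Totals were 806648 to 3286602 counts for the V5 libraries, 1288732 to 2504595 for the wild-type libraries and 3488745 for the input. Levels are given as CPM, the count per 1e6 counts of that library, and for comparisons between genes as CPM per kb of deposited gene length. A single count was worth 1.24 CPM in V5 replicate 1, the shallowest library, and 0.304 CPM in V5 replicate 3. All 8 genes had enough counts to be tested. The counts appear to cover the whole gene with its introns, because the deposited length was 97.3% to 100% of the RefSeq span for 7 of the 8 genes and 88.0% for Meaf6. A signal confined to a promoter would therefore be diluted by the rest of the gene.

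Promoter windows of these genes run from 250 bases before to 50 bases after an annotated start. As background, a winged helix domain of KAT6A binds DNA with unmethylated CpG, so CG pairs are printed in capitals. Brd1 is shown because it was the one gene of the set whose V5 and wild-type libraries did not overlap. All its V5 libraries lay above, as in 4.83% of tested genes. Ing4 is shown because its window held the fewest CG pairs. A relation between CG pairs and ChIP reads was not tested. The sequences are from RefSeq, build GRCm38.p6 (mm10), chr15:88734170-88734469 on the minus strand for Brd1 and chr6:125039598-125039897 on the plus strand for Ing4.
Brd1: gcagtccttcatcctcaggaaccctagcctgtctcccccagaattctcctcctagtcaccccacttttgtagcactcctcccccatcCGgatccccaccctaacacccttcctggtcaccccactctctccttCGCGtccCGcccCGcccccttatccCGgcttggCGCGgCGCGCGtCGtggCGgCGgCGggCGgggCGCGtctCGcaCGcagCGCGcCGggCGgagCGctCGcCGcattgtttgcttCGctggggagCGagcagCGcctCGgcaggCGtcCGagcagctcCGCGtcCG
Ing4: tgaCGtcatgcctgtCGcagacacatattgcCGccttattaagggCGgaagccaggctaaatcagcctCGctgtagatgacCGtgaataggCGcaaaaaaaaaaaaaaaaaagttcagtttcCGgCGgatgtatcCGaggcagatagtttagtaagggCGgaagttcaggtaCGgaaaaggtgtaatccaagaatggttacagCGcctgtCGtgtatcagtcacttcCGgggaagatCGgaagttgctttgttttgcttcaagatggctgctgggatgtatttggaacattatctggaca

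The Brd1 window held 36 CG pairs, a number reached by 6.23% of 32851 windows of this length, and the Ing4 window held 16, reached by 33.0%. The median over all windows was 7. The other windows used, 2 overlapping ones for Kat6b and 1 each for Brpf1, Brpf3, Ing5 and Meaf6, held 25 to 40 CG pairs, with the most in Brpf3. No window of Kat6a was used here. Searched on both strands, GGGCGG was found in windows of 6 of these 7 genes and in 35.7% of all windows, CCGGAAG in 3 and 8.86%, CCAAT in 1 and 37.4%, and TATAAA in 0 and 13.6%. These matches are letters in a window, not sites of binding. Only 59 bases of the Brd1 window and 50 of the Ing4 window lie inside the gene span, whereas the Brpf1 and Kat6b windows lie wholly inside it.

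**Figure D1:**
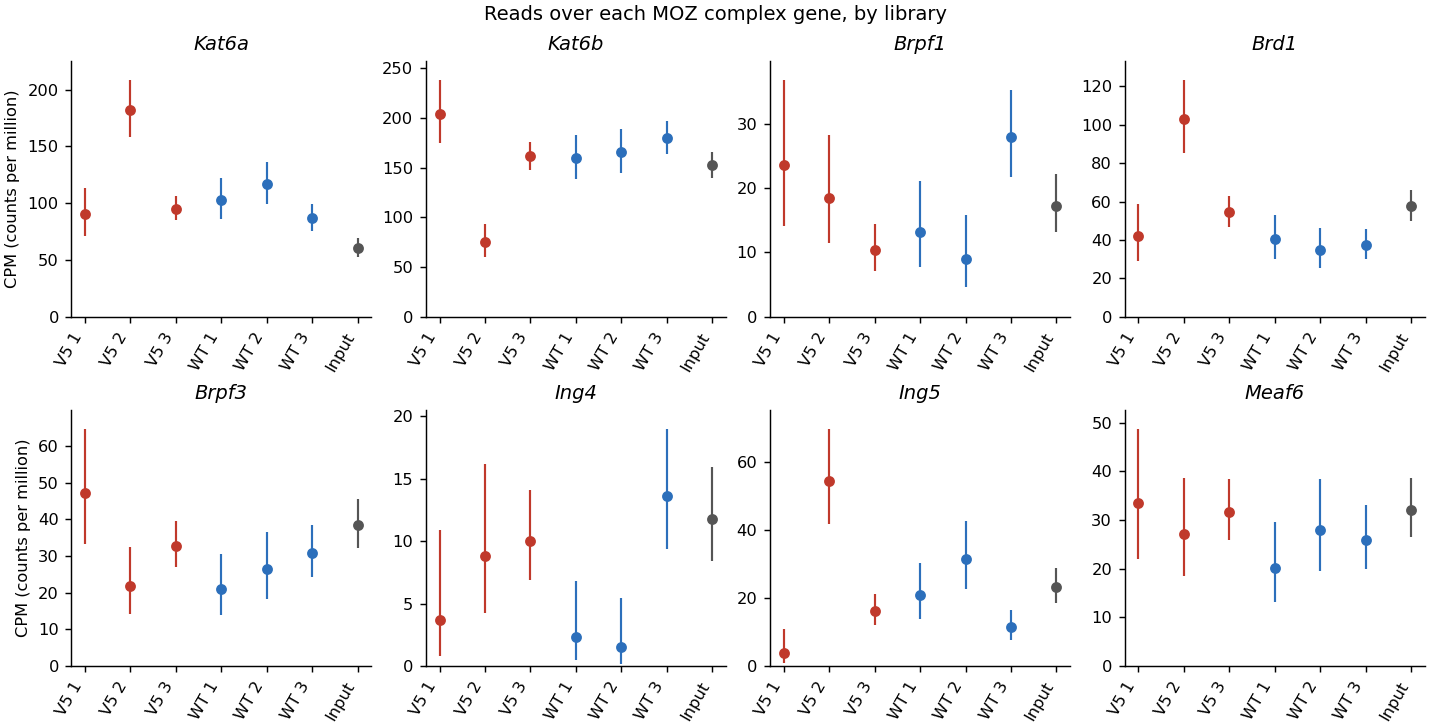
CPM of each gene (vertical axes, each starting at 0) in the 3 V5 libraries (red), the 3 wild-type (WT) libraries (blue) and the input (grey). Bars are exact 95% Poisson intervals of the count and cover counting error only. V5 replicate 2 was the highest ChIP library for Kat6a, Brd1 and Ing5 and the lowest for Kat6b.

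Reads over the catalytic subunit genes pointed in opposite directions and neither gene passed the test. Kat6a, the locus that carries the tag (GeneID 244349, chromosome 8, 22859442 to 22943259), had 90.5, 182 and 95.2 CPM in V5 replicates 1 to 3. Wild-type replicates had 103, 117 and 87.0 CPM, and the input 60.8. The groups overlapped, with V5 replicate 2 far above all other libraries. The means were 122 ± 51.4 and 102 ± 14.9 CPM (SD, n = 3), and the log2 fold change was 0.28 (SE 0.28, 95% interval -0.30 to 0.86, adjusted p = 0.982 by edgeR). Kat6b (GeneID 54169, chromosome 14, 21499216 to 21672478), the longest gene of the set, had 205, 75.5 and 162 CPM in V5, 160, 166 and 180 in wild type, and the input 153. Its wild-type libraries lay close together, while V5 replicates 1 and 2 stood on either side of them. Its log2 fold change was -0.16 (SE 0.27, 95% interval -0.73 to 0.41, adjusted p = 0.988 by edgeR). V5 replicate 2 set both directions, since without it Kat6a stood at -0.10 and Kat6b at 0.15.

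Among the scaffold genes, Brd1 had the largest difference between the groups, and it did not pass over all genes. Brd1 (GeneID 223770, chromosome 15, 88687034 to 88734228) had 34, 117 and 179 counts in V5, or 42.1, 103 and 54.5 CPM. In wild type it had 52, 46 and 93 counts, or 40.3, 34.7 and 37.1 CPM. All V5 libraries were above all wild-type libraries, as in 4.83% of tested genes. V5 replicate 1 exceeded wild-type replicate 1 by less than the counting error of either. The means were 66.5 ± 32.0 and 37.4 ± 2.86 CPM (SD, n = 3). The log2 fold change was 0.85 (SE 0.38, 95% interval 0.05 to 1.64), with an unadjusted p of 0.0375 and an edgeR adjusted p of 0.980, which ranked 429 of 14575 tested genes by p. Without V5 replicate 2 it was 0.41. The input, at 57.6 CPM, lay above all wild-type libraries and above V5 replicates 1 and 3.

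Brpf1 and Brpf3 did not pass, and their groups overlapped. Brpf3 (GeneID 268936, chromosome 17, 28801126 to 28838789) had 47.1, 22.0 and 32.9 CPM in V5, 21.0, 26.4 and 30.7 in wild type, with an input of 38.4. V5 replicate 2 lay within the wild-type range and the other V5 libraries above it. The log2 fold change was 0.41 (SE 0.48, adjusted p = 0.984 by edgeR), and 0.06 without V5 replicate 1. Brpf1 (GeneID 78783, chromosome 6, 113306863 to 113324862) had 23.6, 18.4 and 10.3 CPM in V5, 13.2, 9.04 and 27.9 in wild type, with an input of 17.2. Its wild-type libraries spanned more than its V5 libraries, and the single highest value came from wild-type replicate 3. The log2 fold change of 0.05 (SE 0.65, adjusted p = 0.999 by edgeR) became 0.66 without that library and -0.29 without V5 replicate 1.

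Summed over the scaffold genes Brpf1, Brd1 and Brpf3, the V5 libraries held 113, 143 and 97.7 CPM and the wild-type libraries 74.5, 70.1 and 95.8. The groups did not overlap, but the lowest V5 library and the highest wild-type library were nearly equal. Of these genes only Brd1 separated by itself, while the groups of Brpf1 and of Brpf3 overlapped. The share of such sums that separate among tested genes was not computed. The input held 113 CPM, as much as V5 replicate 1. The sum over Kat6a and Kat6b was nearly the same in both groups, at 270 ± 21.9 CPM for V5 and 271 ± 10.3 CPM for wild type (SD, n = 3), with V5 replicate 2 high in the former gene and low in the latter.

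Neither ING gene passed, and the wider variation was in V5 for Ing5 and in wild type for Ing4. Ing5 (GeneID 66262, chromosome 1, 93803926 to 93822101) had 3, 62 and 53 counts in V5, or 3.72, 54.5 and 16.1 CPM, and 27, 42 and 29 counts in wild type, or 21.0, 31.6 and 11.6 CPM. The input had 23.2 CPM. The V5 libraries thus spanned 14.6-fold, with wild type inside that span. The log2 fold change was 0.23 (SE 0.67, adjusted p = 0.993 by edgeR), and -0.96 without V5 replicate 2. Ing4 (GeneID 28019, chromosome 6, 125039848 to 125049265), the shortest gene, had 3, 10 and 33 counts in V5, 3, 2 and 34 in wild type, with 41 input counts. In CPM these are 3.72, 8.78 and 10.04 in V5 and 2.33, 1.51 and 13.6 in wild type. Replicate 3 held most of the counts in both groups, and these are the deepest ChIP libraries. The log2 fold change was 0.35 (SE 0.90, adjusted p = 0.993 by edgeR), 1.96 without wild-type replicate 3 and -0.077 without wild-type replicate 2.

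Meaf6 (GeneID 70088, chromosome 4, 125085113 to 125113238) was the most even of the genes. It had 33.5, 27.2 and 31.6 CPM in V5, 20.2, 27.9 and 26.0 in wild type, with an input of 32.1. Only V5 replicate 2 fell within the wild-type range. The means were 30.8 ± 3.21 and 24.7 ± 4.01 CPM (SD, n = 3). The log2 fold change was 0.35 (SE 0.47, adjusted p = 0.988 by edgeR).

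Counted over the set, 0 of the 8 genes reached an adjusted p of 0.05 in the edgeR quasi-likelihood test, as did 0% of the 14575 genes tested. DESeq2 called 0 of 24447 genes, 1048 of which had an unadjusted p under 0.05. At an unadjusted p under 0.05 there was 1 member, Brd1, where 4.12% of the tested genes had such a p (600 genes) and 2.74% had one with more reads in V5. Brd1 kept an unadjusted p under 0.05 in 7 of 13 alternative settings, and it had 0.325 without V5 replicate 2, 0.0645 to 0.0965 without any 1 wild-type library, 0.0517 with limma-voom and 0.0639 with a replicate block. Positive log2 fold changes were seen in 7 of the 8, against 52.0% of tested genes, with a median of 0.31 against 0.02. Because the genes were chosen with earlier results of these data known, this count was not tested. Libraries separated with V5 above in 1 of 8 (4.83% of tested genes) and with V5 below in 0 of 8 (5.27%). The 95% intervals, expressed as folds, reached from 0.604 to 1.33 for Kat6b and from 0.349 to 4.64 for Ing4. A 2-fold difference lies outside the intervals of Kat6a and Kat6b, and inside those of the other 6 genes in at least 1 direction. The intervals rest on a dispersion shared by both groups. Kat6a and Kat6b varied far more among the V5 libraries than among the wild-type libraries. Both genes also changed sign without V5 replicate 2. Their intervals therefore do not exclude a 2-fold difference.

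**Figure D2:**
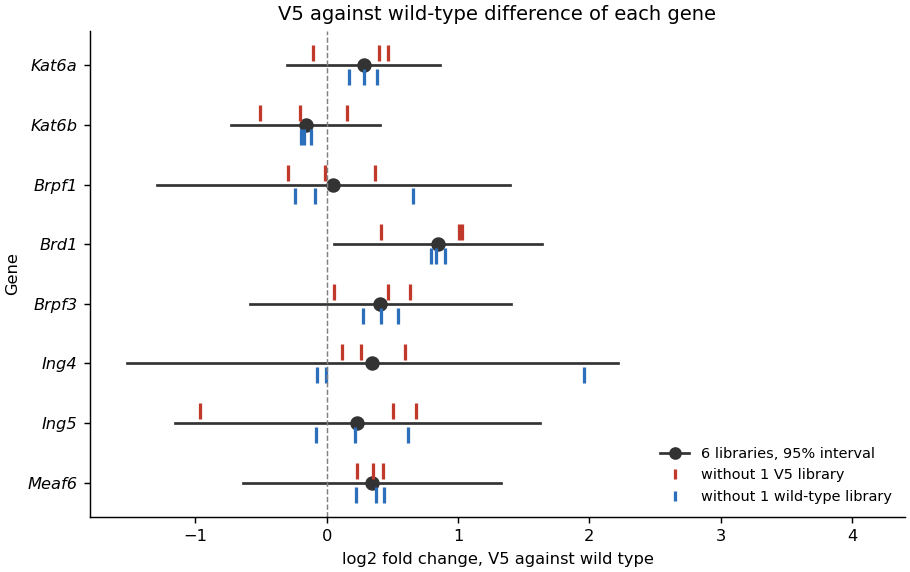
Log2 fold change of V5 against wild type (horizontal axis) for each gene, with its 95% interval (black), and the values after leaving out 1 V5 library (red ticks) or 1 wild-type library (blue ticks). Brd1, at 0.85, has the one interval that does not reach 0, and the ticks of Kat6a, Kat6b, Brpf1, Ing4 and Ing5 lie on both sides of 0.

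The spread between replicates can be set against counting error by the chi-square of a gene's counts per degree of freedom, which averages 1 when libraries differ by counting error alone. Over the 3 V5 libraries it was 35.0 for Ing5, 30.6 for Kat6b, 30.2 for Kat6a and 19.0 for Brd1, against a median of 6.07 over tested genes. In wild type the same genes stood at 9.27, 1.13, 4.05 and 0.286, against a median of 3.43. The spread was larger in V5 than in wild type for 5 of the 8 genes and for 65.3% of tested genes. The other genes lay below the V5 median, with 4.95 for Brpf1, 4.57 for Brpf3, 1.47 for Ing4 and 0.363, within counting error, for Meaf6. In wild type Ing4 had the highest value, 11.5. Where libraries differ by more than counting error, this value also grows with the count. Kat6b and Kat6a had the highest mean counts of the set. The highest ChIP value came from V5 replicate 1 for Kat6b, Brpf3 and Meaf6 and from V5 replicate 2 for Kat6a, Brd1 and Ing5. These are the shallowest ChIP libraries, and they held the highest value in 23.0% and 24.8% of tested genes.

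Kat6a was the one member above the input in every ChIP library. Each of the 6 ChIP libraries, wild type included, had more CPM over Kat6a than the input, by 1.43-fold to 2.99-fold. This was so for 1 of the 8 genes and for 13.0% of tested genes. The 95% Poisson interval of the input was 52.9 to 69.5 CPM, and the lowest interval bound of any ChIP library was 70.9, in V5 replicate 1. The mean ratio to the input was 2.02 in V5 and 1.68 in wild type. Ratios at least as high were found in 8.17% and 11.7% of tested genes. Wild-type arches have no V5 epitope, and their libraries, at 1.43 to 1.92 times the input, overlapped the V5 libraries in this ratio.

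The other genes lay nearer to the input or below it. Kat6b had a mean ratio of 0.964 in V5 and 1.10 in wild type, Brpf1 had 1.01 and 0.973, and Ing5 had 1.07 and 0.921. Ing4 had the lowest ratios, 0.639 and 0.494. For Brd1 the ratio was 1.15 in V5 and 0.649 in wild type, for Brpf3 it was 0.885 and 0.677, and for Meaf6 0.959 and 0.768. In these last genes, 3 of 8, the input exceeded every wild-type library, which was so for 27.7% of tested genes. The V5 mean exceeded the input for 4 of 8 genes (52.9% of tested genes) and the wild-type mean for 2 of 8 (51.9%). There was 1 input library, of tagged arches, so these ratios have no replicate error for the input and none for a wild-type input.

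**Figure D3:**
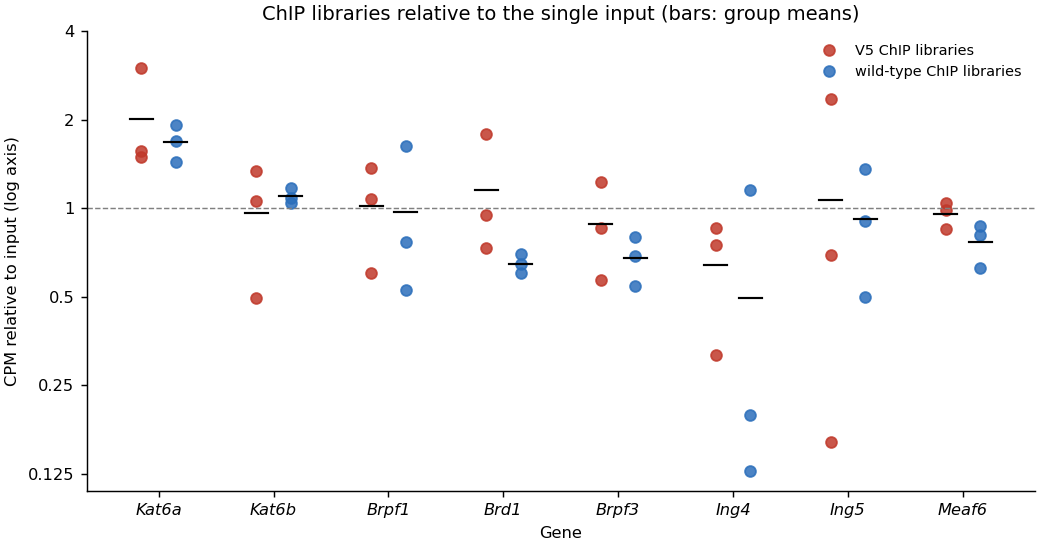
CPM of each ChIP library divided by the CPM of the single input (vertical log axis), by gene, with V5 libraries in red, wild-type libraries in blue and bars at the group means. For Kat6a all 6 libraries lie above 1, from 1.43 to 2.99, and for Brd1, Brpf3 and Meaf6 all wild-type libraries lie below 1.

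Per length, the order of the genes differed between the ChIP libraries and the input. Kat6a had the highest mean level in V5, 1.46 ± 0.614 CPM per kb, and in wild type, 1.22 ± 0.178 (SD, n = 3), and the lowest level in the input, 0.726. In V5 it was followed by Brd1 at 1.41, Ing5 at 1.37, Meaf6 at 1.24, Brpf1 at 0.996, Brpf3 at 0.902, Kat6b at 0.852 and Ing4 at 0.798 CPM per kb. In wild type the order after Kat6a was Ing5 at 1.18, Meaf6 at 0.997, Kat6b at 0.975, Brpf1 at 0.955, Brd1 at 0.792, Brpf3 at 0.691 and Ing4 at 0.616. In both groups each gene differed from the next in the order by less than the larger SD of the pair. In the input, levels ran from 0.726 for Kat6a and 0.885 for Kat6b to 1.30 for Meaf6. The Kat6a level per kb exceeded that of 67.3%, 93.4% and 76.3% of tested genes in V5 replicates 1 to 3 and 77.7%, 86.3% and 64.0% in wild type, but only 30.2% in the input.

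Related genes were set against each other within each library, a ratio that does not depend on library scaling. The log2 ratio of Kat6a to Kat6b counts was -1.17, 1.26 and -0.76 for V5, -0.63, -0.50 and -1.04 in the wild-type replicates, with an input ratio of -1.33. V5 replicate 2 was the only library with more reads over Kat6a than over the longer Kat6b. The group means differed by 0.50 (two-sided exact permutation p = 0.9), and by -0.24 without that library. For Brd1 against Brpf1 the means were 1.88 ± 0.92 for V5 and 1.30 ± 0.79 for wild type (SD, n = 3), with an exact permutation p of 0.5. Their difference of 0.59 was 0.14 without wild-type replicate 3 and 1.12 without V5 replicate 1. Brd1 against Brpf3 stood at 0.92 ± 1.19 and 0.53 ± 0.35 (SD, n = 3, exact permutation p = 0.8), and its difference of 0.39 was -0.25 without V5 replicate 2. Brpf1 against Brpf3 differed by -0.20 (exact permutation p = 0.7), a direction that turned to 0.15 without V5 replicate 3 and to 0.12 without wild-type replicate 3. Ing5 against Ing4 differed by -1.20 (exact permutation p = 0.5), with wild-type values from -0.23 to 4.09, and by -0.29 without wild-type replicate 2 and -2.45 without wild-type replicate 3. For the 5 pairs compared the Benjamini-Hochberg adjusted p was 0.9, all groups overlapped, and the smallest p that 3 against 3 libraries allow is 0.1.

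**Figure D4:**
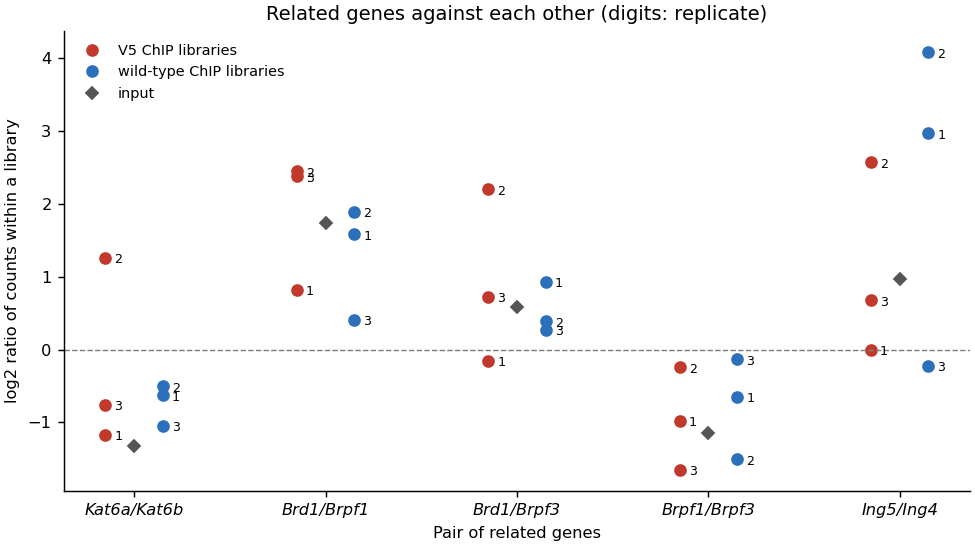
Log2 ratio of counts of related genes within each library (vertical axis), with V5 libraries in red, wild-type libraries in blue, the input as a grey diamond, and replicate numbers as digits. V5 replicate 2, at 1.26, is the one library with more reads over Kat6a than over Kat6b, and V5 and wild type overlap in all 5 pairs.

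The genes of complexes around MOZ and other MYST enzymes did not pass either. By edgeR, each list had 0 calls at an adjusted p of 0.05 and 0 genes at an unadjusted p under 0.05. The shares of tested genes were 0% and 4.12%, so 0 in lists this short says little about these complexes. Of the HBO1 genes (Kat7 and the JADE scaffolds) 3 of 4 were positive in log2 fold change (median 0.13), against 52.0% of tested genes. Jade2 stood at 0.77 (SE 0.49) with 22.3, 44.8 and 36.2 CPM in V5 and 16.3, 20.3 and 24.8 in wild type. Kat7, the catalytic subunit, stood at -0.46 (SE 0.43) with 33.5, 21.1 and 37.7 against 56.6, 41.4 and 32.7. The groups of both genes overlapped. The TIP60 complex, which acetylates histones H4 and H2A, had 7 of 14 tested genes positive, with a median of -0.02. Its 2 smallest p values belonged to the scaffold gene Epc1 at 0.48 (SE 0.30) and to Ruvbl1, an ATPase shared with chromatin remodellers, at 0.63 (SE 0.42). In Ruvbl1 every V5 library, at 39.3 to 47.1 CPM, lay above every wild-type library, at 26.8 to 30.9. It was 1 of the 14 with such a separation, against 4.83% of tested genes.

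In the MSL and NSL complexes, which hold the histone H4 lysine 16 acetyltransferase MOF, 7 of 11 tested genes were positive, with a median of 0.08. Wdr5, a WD-repeat protein also found in H3 lysine 4 methyltransferase complexes, stood at 1.15 (SE 0.59) with 63.2, 14.1 and 23.4 CPM against 16.3, 13.6 and 16.4. Msl2, a ubiquitin ligase of the MSL complex, stood at 0.95 (SE 0.55) with 91.7, 14.1 and 31.6 CPM against 20.2, 23.4 and 28.7. V5 replicate 1 was the highest library in both genes, and V5 replicate 2 lay near or below the wild-type libraries. Of the other ING genes 2 of 3 were positive, with Ing2 at 0.84 (SE 0.75) and Ing3 at -0.67 (SE 0.54). The median of 0.31 over the 8 MOZ complex genes lay above those of the HBO1, TIP60 and MSL and NSL lists and below the 0.59 of the ING genes, which were not tested against each other.

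The genes whose CPM followed Kat6a most closely over the 7 libraries, among 8058 genes with a mean count of at least 50, were Nostrin on chromosome 2 (Pearson r = 0.971), GeneID 100504119 (0.970) and Eif4e3 on chromosome 6 (0.967), on the log2 CPM scale. They were picked as the highest of many, over 7 libraries that differ in depth and include the input, so the coefficients describe likeness only. Eif4e3, a cap-binding translation factor gene, had 76.9, 158 and 56.6 CPM in V5, 66.7, 91.9 and 57.9 in wild type, with an input of 33.5. Like Kat6a, it was highest in V5 replicate 2, next highest in wild-type replicate 2 and lowest in the input. Nostrin, which encodes a regulator of endothelial nitric oxide synthase traffic, had 39.7, 70.3 and 43.5 CPM against 47.3, 46.0 and 43.9, with 33.2 in the input.

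In the RefSeq annotation, 4930557K07Rik, a long non-coding RNA gene, covers all of Ing4, and Gm35883 covers 54.7% of Brpf3. Gm46036 overlaps 998 bases of Kat6a and Gm41377 overlaps 108 of Brd1, and the pseudogene Gm18675 and the small RNA gene Gm22089 lie within Kat6a and Ing5. None of these overlapping genes has a deposited read count, so no reads were listed under them instead of under a member. How reads in overlaps and strands were counted is not stated, and an effect on Ing4 and Brpf3 was not tested. Kat6b, Brpf1 and Meaf6 overlap no other gene in the RefSeq annotation.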

How the data were processed

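ChIP-seq reads of 7 libraries were analysed as the raw read counts per gene that the authors deposited, with Entrez gene identifiers and gene lengths. Tools named in the submitters' processing notes are bcl2fastq, featureCounts and MACS, with build mm10; for aligner, duplicate handling and counting settings the entry is: not given in the sources used here. Of 27179 genes, 25275 matched a RefSeq symbol (GRCm38.p6). All columns had a sample. Single-library files repeated the table's values and were not used. One gene has a negative deposited length and was left out of values per kb.

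V5 and wild-type libraries were compared over all genes by the quasi-likelihood test of edgeR 4.0.16 (R 4.3.3), two-sided, after filterByExpr (minimum count 10) and TMM scaling, with robust dispersion and Benjamini-Hochberg adjustment over 14575 genes at a threshold of 0.05. The fit was run first on counts simulated with the same dispersion in both groups, which checked median fold changes and not the number of calls. Standard errors come from the F statistic. The input stayed out of the fit. CPM uses library totals, ratios of related genes a prior count of 0.5, with two-sided exact permutation tests. Alternatives were DESeq2 1.42.0, limma-voom (limma 3.58.1), RLE factors, library totals alone, no filter, a replicate block, a gene length offset and leaving out each ChIP library. Poisson intervals (95%) cover counting error only, as reads that are duplicates do not count separate molecules.

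The members and lists were chosen with earlier results of these data known. Named besides them are the 2 genes with the smallest p of each related list, the 3 genes most correlated with Kat6a, and genes overlapping a member.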

Additional observations from a re-analysis of the deposited data

How the results depend on the processing

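Over the whole table, edgeR called 0 genes, as it did with RLE factors, library totals alone and the gene length offset, and DESeq2 called 0. limma-voom called 4, no filter on low counts gave 9, and leaving out 1 library gave 0 to 2, with 2 without V5 replicate 2 and 1 without V5 replicate 3. At an unadjusted p under 0.05, edgeR had 600 genes, limma-voom 352, no filter 1344 and the fit without V5 replicate 3 had 1610. The lowest adjusted p of a member under any of the 13 alternatives was 0.461, for Brd1 without V5 replicate 3. Members with more reads in V5 numbered 5 to 7 of 8 in all settings. Brd1 ranged from 0.41 to 1.03, Brpf3 from 0.06 to 0.64 and Meaf6 from 0.22 to 0.43 on the log2 scale, with no change of sign. Leaving out 1 library put Kat6a at -0.10 to 0.47, Kat6b at -0.51 to 0.15, Brpf1 at -0.29 to 0.66, Ing4 at -0.077 to 1.96 and Ing5 at -0.96 to 0.68, and Brpf1 stood at -0.37 with limma-voom; the causes were not tested. The ratio of V5 to wild type over the 8 genes summed was 1.12, and 1.07 to 1.17 without 1 library.

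For V5 and wild-type libraries of the same replicate number, the correlation of deviations from group means was 0.0135, 0.00376 and 0.051 for numbers 1 to 3. V5 replicate 3 correlated best with wild-type replicate 3, V5 replicate 1 with wild-type replicate 2 and V5 replicate 2 with wild-type replicate 3. Correlations this small cannot tell whether libraries of the same number were processed together. With the replicate block 1 gene was called, no member, and Ing5 stood at -0.10. In the pairs of related genes, leaving out 1 library put Brd1 against Brpf1 at 0.14 to 1.12, Ing5 against Ing4 at -2.45 to -0.29, Kat6a against Kat6b at -0.24 to 0.98, Brd1 against Brpf3 at -0.25 to 0.93 and Brpf1 against Brpf3 at -0.57 to 0.15. Depth limits Ing4 most, with 2 counts in wild-type replicate 2.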
